A study of Mus musculus with 16 samples.

Results

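Sterol export by the liver X receptor (LXR) pathway was followed in mouse liver through 10 genes chosen by name: the receptors Nr1h3 (LXR alpha) and Nr1h2 (LXR beta), the transporters Abca1, Abcg1, Abcg5 and Abcg8, the HDL receptor Scarb1, the ubiquitin ligase Mylip, the lysophospholipid acyltransferase Lpcat3 and the phospholipid transfer protein Pltp. A probe was paired with 9 of the 10 genes, and these 9 were tested among 31484 genes; Pltp was not analysed here. Each gene is given by its probe with the highest mean over the 16 arrays, as a log2 signal after the authors' normalisation, and all 9 probes were well above background on all 16 arrays.

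Liver RNA of 16 male mice aged 6 weeks, with a mixed genetic background of 75% C57BL/6 and 25% SV129, was hybridised to 1-colour arrays, with 4 mice for each CerS2 genotype. CerS2 is ceramide synthase 2, an enzyme of liver that makes ceramides with very long acyl chains. The genotypes are called H/A, Del (also labelled delHox), Flox (also labelled delneo) and WT (wild type). The labels do not say what the H/A, Del and Flox alleles contain, nor whether a Cre was used, and CerS2 itself was not analysed here. The study's title names the catalytic activity of the enzyme, and the comparisons made were H/A against WT, Del against WT, Del against Flox, Flox against WT and H/A against Del. H/A against WT and Del against WT share the WT mice, and Del against WT and Del against Flox share the Del mice, so these comparisons do not support one another independently.

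LXR alpha and beta are nuclear receptors that are activated by oxysterols and act as partners of the retinoid X receptors. Their known target genes move cholesterol out of cells (Abca1 and Abcg1) and out of hepatocytes into bile (Abcg5 and Abcg8, which work as a pair). Others limit lipoprotein uptake (Mylip, also called IDOL), remodel phospholipids with polyunsaturated chains (Lpcat3) or transfer phospholipids (Pltp). Abcg1 is known from macrophages and endothelial cells, while Abcg5, Abcg8 and Scarb1 are known for sterol exchange in hepatocytes.

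For 6 of the 16 samples the scanner file listed for the sample was not the one at the slide and position its label gives. Every one of the 16 columns of deposited values was most like the scanner file at the labelled position (r across probes of 0.885 or more), while in those 6 samples r with the listed file was 0.168 or less. The deposited values were used here, each column under its sample, and with the listed files every called difference of the 9 genes was lost, as given beside each. Hepatocyte markers (8 of 8 tested) had a mean log2 signal between 14.01 and 14.45 on every array, so the defining markers of the labelled tissue were present. Signal before scaling differed between groups: the upper quartile of the scanner intensity was 109.6 to 173.6 on H/A arrays, 91.1 to 115.1 on Del arrays, 86.3 to 111.6 on Flox arrays and 89.8 to 99.1 on WT arrays.

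Promoter sequence was at hand for 8 of the 10 genes, in 10 RefSeq windows of 250 bases before to 50 bases after a start (GRCm38.p6). The element LXR is known to bind with its partner, called DR4, was searched as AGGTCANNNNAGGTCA on both strands, allowing 3 of its 12 fixed letters to differ. The window of Abca1 held the only match among these genes, 67 to 52 bases before the start, with 3 letters different. A match at this tolerance is common: 7189 of 32851 windows (21.9%) of all genes held one. The Abca1 match is shown because it is the LXR-type element among the genes below, at chr4:53159940-53159969 on the minus strand, read 5′ to 3′ along the gene with the 16-base element in capitals:
Abca1: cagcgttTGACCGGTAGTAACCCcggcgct

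Abcg5 and Abcg8 lie head to head on chromosome 17, with 109 bases between the start of Abcg5 (84683011, minus strand) and the nearer of the annotated starts of Abcg8 (84683121, plus strand). The windows at these starts overlap, and each held 3 matches to AGATAA on both strands together, the letters that GATA factors bind; 35 of 32851 windows (0.11%) held 3 or more. This motif was chosen after the sequences were seen. The 2 matches between the starts are shown because the transcripts on either side moved together from mouse to mouse, as given below. The part of these matches in that joint movement was not tested. The stretches shown lie at chr17:84683018-84683043 and chr17:84683048-84683073, plus strand, with the match (AGATAA read on the minus strand) in capitals:
Abcg5-Abcg8 match 1: aacgatgccaTTATCTgatgtacctt
Abcg5-Abcg8 match 2: cagagtgtccTTATCTcgacaatagg

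Between genotypes, the 9 genes did not move as 1 group. In H/A against WT livers 2 rose (Abcg1 and Scarb1) and 0 fell, at a Benjamini-Hochberg adjusted p under 0.05 in limma over all 31484 genes, where 10.1% of all genes were called, 7.08% up and 2.97% down. In Del against WT livers the same 2 genes rose and 0 fell, where 13.2% of all genes were called, 8.85% up and 4.38% down. In Del against Flox livers 4 rose (Abcg1, Scarb1, Mylip and Nr1h3) and 1 fell (Abcg8), where 34.8% of all genes were called, 16.6% up and 18.2% down. The median log2 difference of the 9 genes was 0.11, 0.14 and 0.38 in these comparisons in turn, beside -0.09, -0.11 and -0.14 for all genes. The higher calls were 70.4%, 66.9% and 47.8% of all calls in these comparisons, and 98.7%, 80.5% and 78% without scaling between arrays. Without Flox replicate 1, which stood apart in Cyp7b1 (below), 3 rose and 0 fell in Del against Flox livers (Abcg1, Mylip and Scarb1) and 1 rose in Del against WT livers (Abcg1). Without WT replicate 2, 3 rose in H/A against WT livers (Mylip besides Abcg1 and Scarb1). In the same fit 5 rose and 1 fell in Del against Flox livers (Abca1 in addition). Calls over all genes also grew in that fit, from 3166 to 8021 in H/A against WT livers. In Del against Flox livers they grew from 10948 to 12283. The gains among the 9 genes thus came with more calls over all genes. With 9 genes, the counts of genes that rose or fell describe the genes and carry no test of the list.

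**Figure D1:**
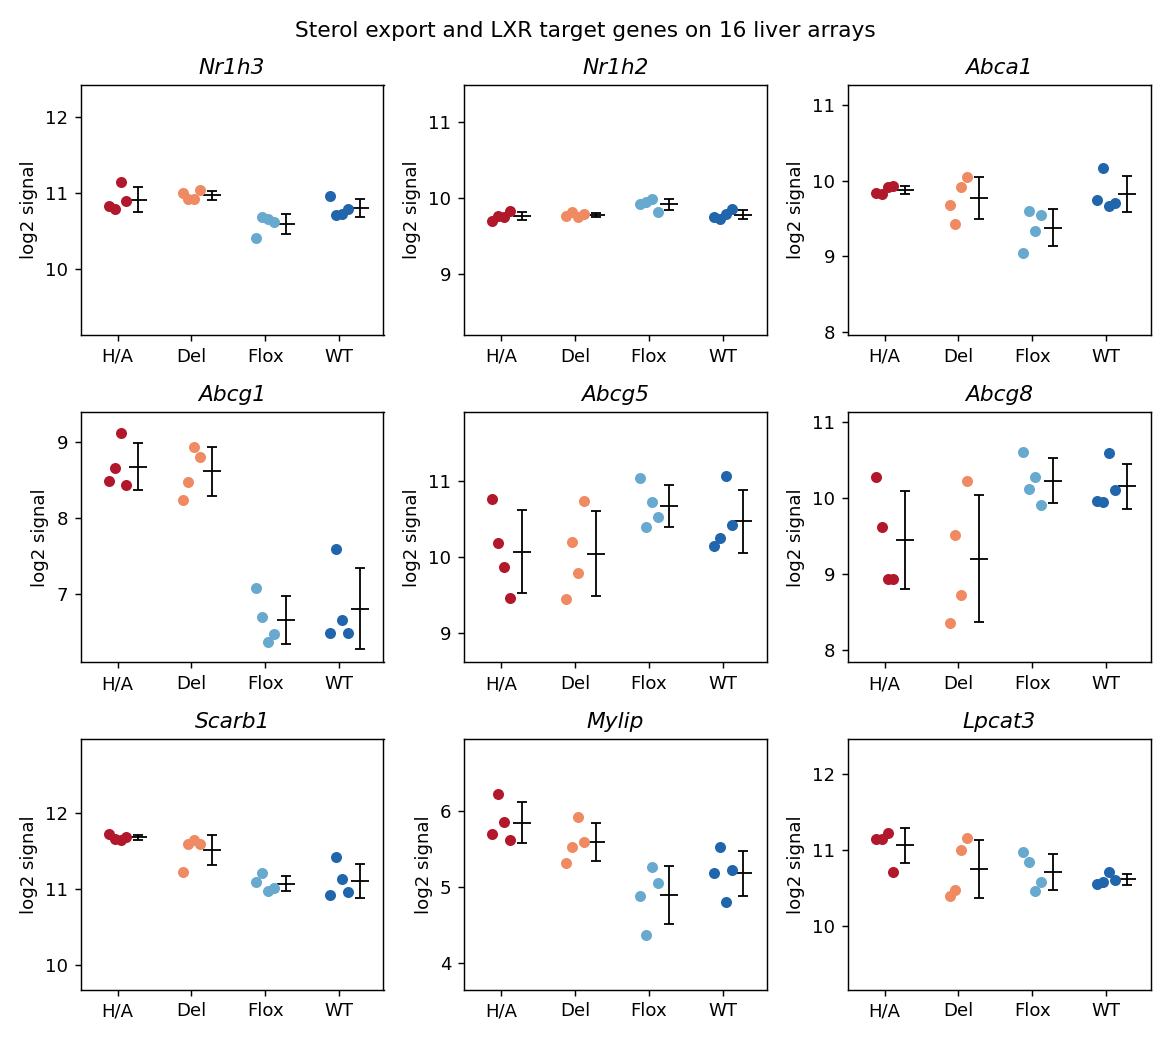
Log2 signal (vertical axes, equal span in every panel) of 9 genes on the arrays of H/A, Del, Flox and WT livers; points are single mice, and bars beside them are the mean and SD of 4 mice. Abcg1 lies between 8.24 and 9.12 in all H/A and Del livers and between 6.37 and 7.59 in all Flox and WT livers, while Nr1h2 spans little in any group.

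**Figure D2:**
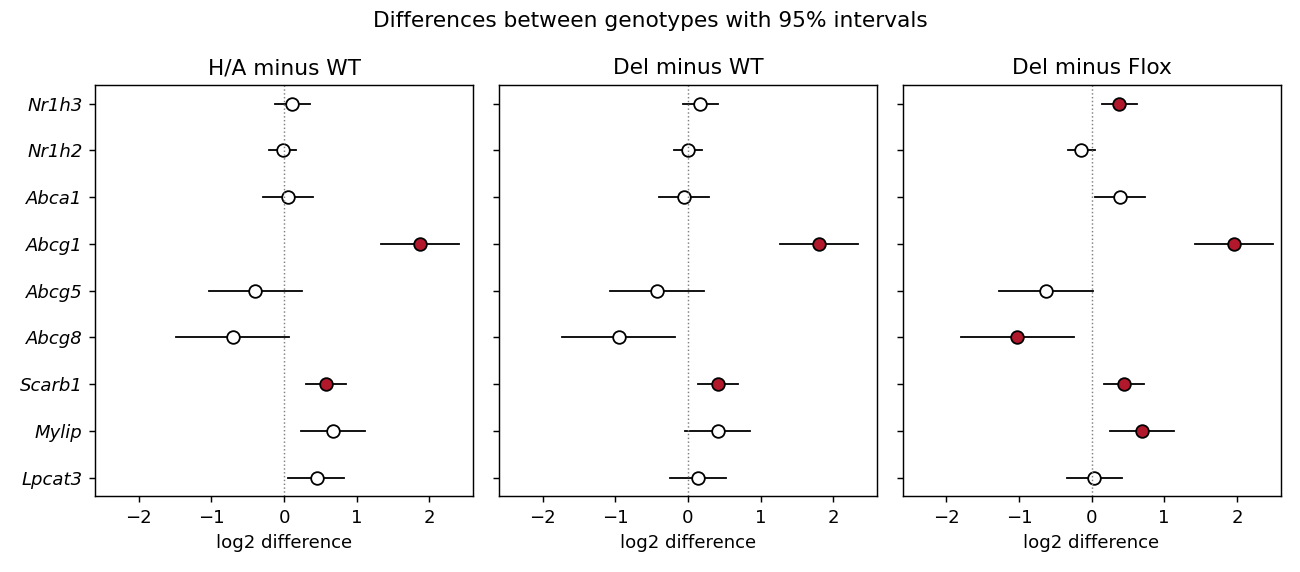
Log2 difference with its 95% interval (horizontal axes) for 9 genes in 3 comparisons from limma; filled points passed an adjusted p of 0.05 over all genes tested, open points did not. Abcg1 has the largest difference in each panel, and Abcg5 and Abcg8 lie below 0 in each.

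Nr1h3, the LXR that predominates in liver, had log2 signals of 10.82, 10.79, 11.14 and 10.89 in H/A livers, 10.99, 10.92, 10.92 and 11.04 in Del livers, 10.40, 10.68, 10.65 and 10.62 in Flox livers and 10.96, 10.71, 10.72 and 10.79 in WT livers. Every Del liver was above every Flox liver, and every Flox liver below every WT liver, while H/A and WT livers overlapped. Nr1h3 rose by 0.38 in Del against Flox livers (95% interval 0.14 to 0.62, 1.3-fold, adjusted p = 0.0205 in limma). The differences of H/A and Del livers from WT livers were 0.11 (adjusted p = 0.483) and 0.17 (adjusted p = 0.28), and that of Flox from WT livers was -0.21 (adjusted p = 0.802). The call against Flox livers ended without Flox replicate 1, the lowest Flox liver (adjusted p = 0.0642). It ended as well within slide 1 (0.44, adjusted p = 0.435), within slide 2 (0.33, adjusted p = 0.153) and with the scanner files as listed (0.26, adjusted p = 0.67).

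Nr1h2, the LXR expressed in most tissues, varied little between mice of a genotype (SD of 0.03 to 0.08 in the 4 groups). Its log2 signals were 9.70 to 9.83 in H/A livers, 9.75 to 9.82 in Del livers, 9.82 to 9.99 in Flox livers and 9.73 to 9.86 in WT livers. The differences of H/A and Del from WT livers were -0.02 (95% interval -0.21 to 0.17) and 0 (-0.19 to 0.19), so these data bound a change of Nr1h2 more tightly than that of the other 8 genes. The Del livers lay at or below the lowest Flox liver, with a difference of -0.14 that did not pass (adjusted p = 0.207 in limma). In H/A against WT livers the sign depended on scaling: without scaling between arrays Nr1h2 gave 0.56 (adjusted p = 0.0285) where the median of all genes also moved to 0.37.

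Abcg1, which passes cholesterol from cells to HDL particles, had the largest difference of the 9 genes. Its log2 signals were 8.49, 8.66, 9.12 and 8.43 in H/A livers and 8.24, 8.47, 8.94 and 8.80 in Del livers, against 7.08, 6.69, 6.37 and 6.47 in Flox livers and 6.49, 7.59, 6.66 and 6.48 in WT livers. All 8 H/A and Del livers were above all 8 Flox and WT livers; WT replicate 2 was the highest of those 8. Abcg1 rose by 1.87 in H/A against WT livers (95% interval 1.33 to 2.40, 3.65-fold, adjusted p = 0.000532 in limma). It rose by 1.81 in Del against WT livers (1.27 to 2.34, 3.50-fold, adjusted p = 0.000334) and by 1.96 in Del against Flox livers (1.43 to 2.50, 3.90-fold, adjusted p = 0.000175). H/A and Del livers differed by 0.06 (-0.47 to 0.60, adjusted p = 0.973), and Flox and WT livers by -0.16 (-0.69 to 0.38, adjusted p = 0.903). Groups that did not overlap were seen for 3 of the 9 genes in H/A against WT livers (Abcg1, Scarb1 and Mylip), for 1 in Del against WT livers (Abcg1) and for 5 in Del against Flox livers, where 16.7%, 17.8% and 33.5% of all genes did not overlap.

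Within the slides the Abcg1 difference kept its direction. On slide 1 it was 1.72 in 3 H/A against 2 WT livers (adjusted p = 0.16 in limma), 1.20 in 1 Del against 2 WT livers (adjusted p = 0.338) and 1.36 in 1 Del against 2 Flox livers (adjusted p = 0.247). On slide 2 it was 1.86 in 1 H/A against 2 WT livers (adjusted p = 0.0173), 2.17 in 3 Del against 2 WT livers (adjusted p = 0.00108) and 2.32 in 3 Del against 2 Flox livers (adjusted p = 0.000739). A single array of a group was taken there to vary like the others. With the scanner files as listed, the differences were 1.16, 1.08 and 1.27 and passed in none of the 3 comparisons (adjusted p = 0.99, 0.968 and 0.667).

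Most of the macrophage markers tested moved with Abcg1. Of 12 markers of Kupffer cells and macrophages, 11 were tested (Cd68 was not), and none of them was below background on all 16 arrays. In H/A against WT livers 9 of 11 rose and 0 fell, with a median difference of 1.32; Cd14 rose by 2.88, Marco by 2.68 and Adgre1, which encodes F4/80, by 1.70. In Del against WT livers 8 rose and 0 fell (median 0.96), and in Del against Flox livers 7 rose and 1, Csf1r, fell (median 0.92). Csf1r differed by -0.72 there, and also lay below 0 in H/A and in Del against WT livers (-0.46 and -0.57) without passing. Timd4 passed in none of the 3 comparisons (0.12, 0.12 and -0.22). The mean log2 signal of the 11 markers was 8.20 to 9.37 in H/A livers, 8.40 to 8.61 in Del livers, 7.43 to 7.79 in Flox livers and 6.92 to 7.87 in WT livers. WT replicate 2 and Flox replicate 1, which had the highest Abcg1 signal of their groups, also had the highest marker level of their groups, at 7.87 and 7.79. The part of the macrophage markers in the Abcg1 difference was not tested. In whole liver, more or fewer cells of a type and more or less RNA per cell cannot be told apart.

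The genes most like Abcg1 over the 16 arrays were Cd53, a leukocyte tetraspanin, Slc39a4, a zinc importer, and Kctd12, each with a Pearson r of 0.98. These r values describe 16 arrays that share genotype differences, and carry no test. Of 5 neutrophil markers tested, 2 rose in H/A against WT livers (S100a8 by 2.15 and S100a9 by 1.58). Only S100a8 passed in Del against WT livers, where it rose by 1.70, and in Del against Flox livers, where it rose by 1.45. In each of these 2 comparisons 3 of the 5 markers lay above 0 (medians of 0.53 and 0.11). Retnlg (-0.44 and -0.58) and Mpo (-0.65 and -0.8) lay below 0 there without passing. Of 8 stellate cell and fibroblast markers, Rgs5 rose by 1.13, 1.23 and 1.14 in the 3 comparisons above, and Col1a1 and Dcn rose besides in Del against Flox livers, by 1.45 and 0.51. In the same order 4, 5 and 6 of the 8 markers lay above 0, with medians of 0.17, 0.23 and 0.42. Reln (-0.38, -0.13 and -0.27) and Pdgfrb (-0.52, -0.14 and -0.44) lay below 0 in each without passing. Of 8 sinusoidal endothelial markers 0 passed in H/A or Del against WT livers in limma (2 and 1 at an unadjusted p under 0.05), and Stab1 fell by 0.48 in Del against Flox livers. Of 5 cholangiocyte markers 0 passed in H/A or Del against WT livers (0 and 1 at an unadjusted p under 0.05), and Sox9 rose by 1.09 in Del against Flox livers. Of 8 hepatocyte markers, Cps1 rose by 0.68 in H/A against WT livers and by 0.69 in Del against Flox livers. The part of these markers in the differences of the 9 genes was not tested. Of 5 lymphocyte markers 0 passed in limma in any comparison (1, 1 and 2 at an unadjusted p under 0.05 in the 3 comparisons above).

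**Figure D3:**
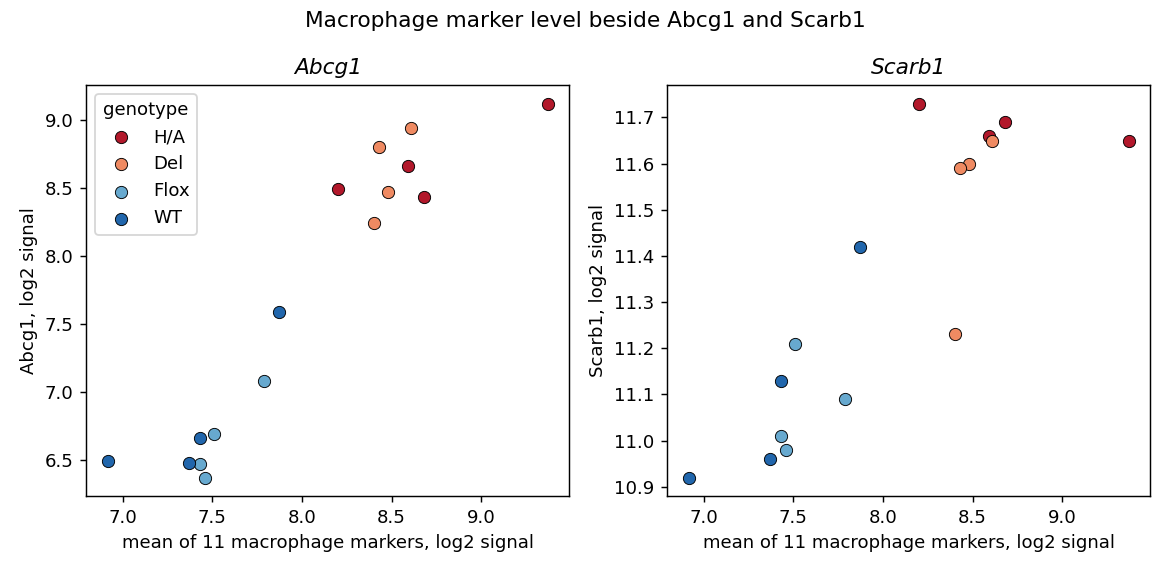
Log2 signal of Abcg1 (left) and Scarb1 (right) on the vertical axes against the mean log2 signal of 11 macrophage markers on the horizontal axis, with 1 point per mouse, coloured by genotype. The 8 H/A and Del livers have marker levels of 8.20 or more and the 8 Flox and WT livers of 7.87 or less.

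Abca1, which loads cholesterol and phospholipid onto apolipoprotein A-I, did not follow Abcg1. Its log2 signals were 9.84, 9.82, 9.92 and 9.93 in H/A livers, 9.68, 9.43, 9.92 and 10.05 in Del livers, 9.05, 9.60, 9.33 and 9.54 in Flox livers and 9.75, 10.17, 9.67 and 9.70 in WT livers. H/A and WT livers overlapped, as did Del and WT livers, and every Flox liver was below every WT liver. The difference was 0.06 in H/A against WT livers (95% interval -0.29 to 0.40, adjusted p = 0.826 in limma) and -0.05 in Del against WT livers (-0.40 to 0.29, adjusted p = 0.822). In Del against Flox livers it was 0.39 (0.05 to 0.73, adjusted p = 0.0695), and in Flox against WT livers -0.44 (-0.78 to -0.10, adjusted p = 0.802). With the scanner files paired by label and scaled to the 75th percentile, the Del against Flox difference passed (0.52, adjusted p = 0.0498).

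The genes most like Abca1 over 16 arrays were Nsun2 (r = 0.93), Cop1 (0.92) and Nkap (0.91). The intervals against WT livers leave room for changes of Abca1 up to 0.40 in either direction, and exclude one of the size measured for Abcg1.

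Abcg5 and Abcg8, the paired transporters that secrete cholesterol and plant sterols into bile, lay on average lower in H/A and Del than in Flox and WT livers, with a wide spread. Abcg8 had log2 signals of 10.28, 9.62, 8.93 and 8.93 in H/A livers, 8.35, 9.51, 8.72 and 10.22 in Del livers, 10.61, 10.12, 10.27 and 9.90 in Flox livers and 9.96, 9.95, 10.59 and 10.10 in WT livers. In the H/A and the Del group 1 liver each reached the levels of the Flox and WT livers, and the other 3 lay below them all. Abcg8 fell by 1.02 in Del against Flox livers (95% interval -1.80 to -0.24, adjusted p = 0.0424 in limma). The differences from WT livers were -0.71 in H/A (-1.49 to 0.07, adjusted p = 0.184) and -0.95 in Del livers (-1.73 to -0.17, adjusted p = 0.0924), and neither passed.

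The Abcg8 call was the least stable of those against Flox livers. It was lost in 8 of 16 fits that left out 1 liver (differences from -1.36 to -0.74, adjusted p up to 0.133), and with the scanner files paired by label (-0.89, adjusted p = 0.069). The main probe is assigned to an Abcg8 transcript that RefSeq lists as non-coding, and the other 2 probes to coding transcripts. These 2 gave -0.60 (adjusted p = 0.0813) and -0.39 (adjusted p = 0.225) in limma when every probe was kept in the fit. The main probe gave -0.60 on slide 2 and -2.01 on slide 1. With the scanner files as listed the difference was 0.04 (adjusted p = 0.974).

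Abcg5 had log2 signals of 10.76, 10.19, 9.87 and 9.46 in H/A livers, 9.45, 10.20, 9.79 and 10.74 in Del livers, 11.04, 10.39, 10.73 and 10.53 in Flox livers and 10.14, 10.25, 11.07 and 10.42 in WT livers. All 4 groups overlapped. The differences were -0.40 in H/A against WT livers (95% interval -1.04 to 0.24, adjusted p = 0.356 in limma), -0.43 in Del against WT livers (-1.07 to 0.22, adjusted p = 0.319) and -0.63 in Del against Flox livers (-1.27 to 0.02, adjusted p = 0.11). None passed, and the intervals reach a fall of more than 1 on the log2 scale.

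From mouse to mouse, Abcg5 and Abcg8 moved together. After each genotype's mean was subtracted, their signals correlated over 16 livers with Pearson's r = 0.94 (permutation p = 8e-05, permuting mice within genotypes; 0.00288 adjusted over the 36 pairs of the 9 genes) and Spearman's rho = 0.89 (permutation p = 0.00035; adjusted 0.0126). Without the 2 livers farthest from the median of Abcg5, r was 0.90. With the other Abcg8 probes r was 0.93 and 0.89, and with values scaled from the scanner files by label, corrected by normexp or left unscaled it was 0.94 to 0.96. Among the other 35 pairs none passed after adjustment; the next were Abcg1 with Scarb1 (r = 0.72, permutation p = 0.0148, adjusted 0.178) and Abcg1 with Lpcat3 (r = 0.57, rho = 0.69, permutation p for rho = 0.00381, adjusted 0.0686). The 2 genes overlap in the annotation on opposite strands. The pairs were tested after the values had been seen.

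**Figure D4:**
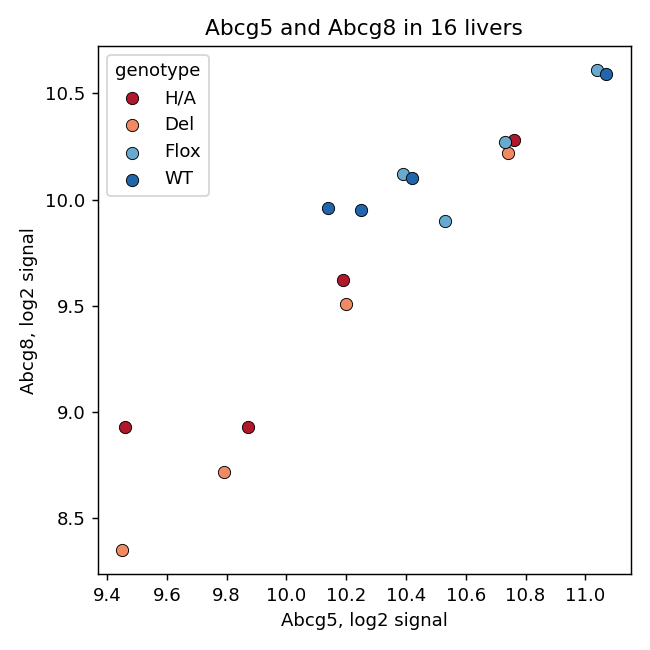
Log2 signal of Abcg8 (vertical axis) against Abcg5 (horizontal axis) in 16 livers, with 1 point per mouse coloured by genotype. The points rise together within each genotype, from 8.35 for Abcg8 in Del replicate 1, where Abcg5 was 9.45, to 10.61 in Flox replicate 1, where Abcg5 was 11.04.

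Genes most like Abcg8 over the 16 arrays were the solute carriers Slc17a2 and Slc38a3 and the gene model Gm20300 (r = 0.91 each). For Abcg5 they were Uox, the urate oxidase of hepatocytes, Rsrp1 (r = 0.87 each) and Gm28042 (0.86).

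Scarb1, the receptor SR-BI that takes cholesteryl esters from HDL and is also known from macrophages and endothelium, rose in all 3 comparisons of H/A or Del livers. Its log2 signals were 11.73, 11.66, 11.65 and 11.69 in H/A livers, 11.23, 11.60, 11.65 and 11.59 in Del livers, 11.09, 11.21, 10.98 and 11.01 in Flox livers and 10.92, 11.42, 11.13 and 10.96 in WT livers. All H/A livers were above all WT livers and all Del livers above all Flox livers, while Del replicate 1 lay below WT replicate 2. Scarb1 rose by 0.57 in H/A against WT livers (95% interval 0.30 to 0.85, 1.49-fold, adjusted p = 0.0129 in limma), by 0.45 in Del against Flox livers (0.17 to 0.72, 1.36-fold, adjusted p = 0.0192) and by 0.41 in Del against WT livers (0.14 to 0.69, 1.33-fold, adjusted p = 0.048).

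The Del against WT call of Scarb1 sat at the threshold, and was lost in 14 of 16 fits that left out 1 liver (differences of 0.35 to 0.51). The H/A against WT call was lost without WT replicate 4 (adjusted p = 0.0501), and the Del against Flox call without Del replicate 3 (adjusted p = 0.0585). Averaging Scarb1 over its probes gave 0.23 in Del against WT livers (adjusted p = 0.135) and 0.25 in Del against Flox livers (adjusted p = 0.0671), since its second probe differed by 0.05 in both. In H/A against WT livers the second probe differed by 0.27 (adjusted p = 0.174).

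With the scanner files as listed the Scarb1 differences were 0.47 in H/A against WT livers, 0.43 in Del against WT livers and 0.36 in Del against Flox livers (adjusted p = 0.99, 0.968 and 0.669 in limma). Within slide 1 the Scarb1 differences were 0.51 in H/A against WT livers, 0.06 in Del against WT livers and 0.08 in Del against Flox livers, where the only Del liver was replicate 1. Within slide 2 they were 0.64, 0.57 and 0.62 in the same order, with adjusted p in limma of 0.16, 0.0657 and 0.0445. The genes most like Scarb1 were Dse, a dermatan sulfate epimerase (r = 0.96), Lyz1, a lysozyme (0.95), and Prkcb, a protein kinase C (0.94). The macrophage marker levels given beside Abcg1 apply here too, and their part in the Scarb1 difference was not tested.

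Mylip, the ubiquitin ligase that limits lipoprotein uptake, had log2 signals of 5.69, 6.22, 5.86 and 5.62 in H/A livers, 5.32, 5.52, 5.92 and 5.59 in Del livers, 4.88, 4.37, 5.26 and 5.05 in Flox livers and 5.18, 5.52, 4.80 and 5.22 in WT livers. All Del livers were above all Flox livers and all H/A livers above all WT livers, while Del and WT livers overlapped. Mylip rose by 0.69 in Del against Flox livers (95% interval 0.25 to 1.14, 1.62-fold, adjusted p = 0.0216 in limma). The difference of 0.67 in H/A against WT livers (0.23 to 1.11) did not pass (adjusted p = 0.0529), nor did that of 0.41 in Del against WT livers (adjusted p = 0.182).

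The Mylip call was lost without Del replicate 3 or Flox replicate 2 (adjusted p up to 0.0765). It was also lost without scaling between arrays (0.73, adjusted p = 0.0773), within slide 1 (0.69, adjusted p = 0.356), within slide 2 (0.52, adjusted p = 0.113) and with the scanner files as listed (0.36, adjusted p = 0.67). In H/A against WT livers it was gained in 3 of 16 fits that left out 1 liver and under moderation with a trend (adjusted p = 0.0426). Mylip was most like Pex14 and Emc8 (r = 0.92 each) and Polg (0.91).

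Lpcat3, which puts polyunsaturated chains into phospholipids, passed in no comparison. Its log2 signals were 11.15, 11.15, 11.23 and 10.71 in H/A livers, 10.39, 10.47, 11 and 11.16 in Del livers, 10.98, 10.84, 10.46 and 10.58 in Flox livers and 10.55, 10.58, 10.71 and 10.61 in WT livers. In the H/A group 3 livers lay above all WT livers, and replicate 4 equalled the highest of them. The difference was 0.45 in H/A against WT livers (95% interval 0.06 to 0.83, adjusted p = 0.108 in limma), 0.14 in Del against WT livers (-0.24 to 0.53, adjusted p = 0.583) and 0.04 in Del against Flox livers (-0.34 to 0.42, adjusted p = 0.868). The second Lpcat3 probe gave 0.27, 0.21 and 0.46, and passed in none (adjusted p = 0.355, 0.48 and 0.0886). For the main probe, the H/A against WT difference was 0.61 within slide 1 and 0.04 within slide 2. On slide 2 replicate 4 was the only H/A liver, so mouse and slide cannot be told apart there.

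The control comparison of Flox against WT livers gave 0 of 9 genes called in limma, 1 gene (Abca1) at an unadjusted p under 0.05, and 2 whose groups did not overlap (Abca1 and Nr1h3, both lower in Flox livers). Over all genes 0.0222% were called (7 genes), 5.80% had an unadjusted p under 0.05 and 4.37% did not overlap. H/A against Del livers gave 0 of 9 genes called in limma, 0 at an unadjusted p under 0.05 and 0 that did not overlap, where 0.0127% of all genes (4) were called, 7.85% had an unadjusted p under 0.05 and 3.68% did not overlap. The largest differences of H/A from Del livers were 0.30 for Lpcat3 (95% interval -0.08 to 0.69), 0.26 for Mylip (-0.18 to 0.70) and 0.24 for Abcg8 (-0.54 to 1.02).

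Other genes of the pathway were read from 5 lists, which were chosen with earlier results of these data known. Over all genes 7.08% were called up and 2.97% down in H/A against WT livers. In Del against WT livers these shares were 8.85% and 4.38%, and in Del against Flox livers 16.6% and 18.2%. Beside these shares, the counts below describe the lists and carry no test. Of 14 LXR partners and co-regulators tested, 1 rose in H/A against WT livers (Hdac3, a deacetylase of the co-repressor complex, by 0.48, adjusted p = 0.0258 in limma), 0 passed in Del against WT livers (2 at an unadjusted p under 0.05) and 1 fell in Del against Flox livers (Ppargc1a, a co-activator of fasting metabolism, by 1.71, adjusted p = 0.0268). The list's medians were 0.04, -0.07 and -0.03. Hdac3 differed by 0.38 in Del against WT livers (adjusted p = 0.059), by 0.05 in Del against Flox livers (adjusted p = 0.749) and by 0.33 in Flox against WT livers (adjusted p = 0.802, unadjusted p = 0.0207). Ppargc1a differed by 0.01 in H/A against WT livers (adjusted p = 0.995), by -1.06 in Del against WT livers (adjusted p = 0.18) and by 0.65 in Flox against WT livers (adjusted p = 0.812).

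The list of further LXR target genes had 14 tested: in H/A livers 3 rose and 1 fell relative to WT livers, 3 rose and 2 fell in Del against WT livers, and 4 rose and 4 fell in Del against Flox livers, with medians of 0.05, 0.05 and -0.08. Lpl, the lipoprotein lipase that is low in adult hepatocytes and high in macrophages, had log2 signals of 10.65, 10.13, 10.02 and 10.89 in H/A livers and 10.76, 11.09, 10.59 and 10.47 in Del livers, against 8.94, 8.63, 8.20 and 8.05 in Flox livers and 8.96, 8.60, 8.37 and 8.08 in WT livers. All H/A and Del livers were above all Flox and WT livers, by 1.92 in H/A against WT livers, 2.23 in Del against WT livers and 2.27 in Del against Flox livers (adjusted p = 0.000383, 6.76e-05 and 5.58e-05). Scd2, a stearoyl-CoA desaturase of tissues other than adult liver, rose by 2.17, 2.30 and 2.32 in the same comparisons (adjusted p = 0.000596, 0.0002 and 0.000177), and Apoc2, the cofactor of Lpl, rose by 0.86, 1.17 and 1.28.

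Mlxipl, which encodes the glucose-responsive factor ChREBP, moved the other way. It fell, with log2 differences of -1.07 in H/A against WT livers (adjusted p = 0.0236 in limma), -1 in Del against WT livers (adjusted p = 0.0258) and -0.89 in Del against Flox livers (adjusted p = 0.0236). Pnpla3, a lipase of lipid droplets, fell by 0.44 in Del against Flox livers (adjusted p = 0.0183 in limma). Its differences of -0.22 in H/A against WT livers (adjusted p = 0.221) and -0.35 in Del against WT livers (adjusted p = 0.0777) did not pass.

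Oxysterol and LXR ligand metabolism was covered by 9 tested genes, of which 1 fell when H/A livers were set against WT livers, 2 fell in Del against WT livers and 2 fell in Del against Flox livers, with medians of -0.21, -0.26 and -0.02. Cyp7b1, the hydroxylase that clears 25- and 27-hydroxycholesterol, had log2 signals of 7.17, 6.99, 7.24 and 7.34 in H/A livers and 7.16, 7.24, 7.30 and 7.10 in Del livers, against 6.87, 10.53, 11.08 and 10.80 in Flox livers and 10.29, 10.48, 9.79 and 10.81 in WT livers. Flox replicate 1 was as low as the H/A and Del livers, and the other 7 Flox and WT livers were above all of them. Cyp7b1 fell in all 3 comparisons, with log2 differences of -3.16 in H/A against WT livers, -3.14 in Del against WT livers and -2.62 in Del against Flox livers (adjusted p = 0.00699, 0.00497 and 0.00899 in limma). Without Flox replicate 1, the difference in Del against Flox livers was -3.60 (adjusted p = 1.01e-06).

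Cyp27a1, the mitochondrial sterol 27-hydroxylase, fell by 0.79 in Del against WT livers (adjusted p = 0.0219 in limma). Its differences of -0.58 in H/A against WT livers (adjusted p = 0.0801) and -0.5 in Del against Flox livers (adjusted p = 0.0726) did not pass. Cyp51, an earlier enzyme of cholesterol synthesis, rose by 0.74 in Del against Flox livers (adjusted p = 0.0174). It differed by 0.09 in Del against WT livers (adjusted p = 0.777) and by -0.65 in Flox against WT livers (adjusted p = 0.802, unadjusted p = 0.00704).

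HDL and cellular cholesterol handling was covered by 19 tested genes: 5 rose and 1 fell when H/A livers were set against WT livers, 5 rose and 0 fell in Del against WT livers, and 6 rose and 0 fell in Del against Flox livers, with medians of 0.15, 0.05 and 0.08. Lipa, the lysosomal acid lipase that frees cholesterol from its esters, rose by 0.89, 0.92 and 1.04 (adjusted p = 0.00645, 0.00375 and 0.00122 in limma). Npc2, which carries that cholesterol to the lysosomal membrane, rose by 0.65, 0.63 and 0.85. Soat2, which makes cholesteryl esters in hepatocytes and intestine, rose by 0.66 in H/A and by 0.63 in Del against WT livers, and by 0.53 in Del against Flox livers.

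Soat1, the form of that enzyme known from macrophages, was not well above background on any WT or Flox array, and was measured on 3 of 4 H/A and 2 of 4 Del arrays. It passed the filter on dim probes only through H/A and Del livers, so no p is given, and its place among the rises of the list in all 3 comparisons supports nothing. With a floor under the WT signals, its mean in H/A livers was 1.83-fold that of WT livers, and in Del livers 1.54-fold. The floor was, on every array of the dimmer group, the lowest signal of any probe well above background. The probe's own signal was taken where that was higher. These folds are not strict lower bounds. Soat1 itself was not well above background at log2 signals of 4 (H/A replicate 1), 3.67 (Del replicate 1) and 3.91 (Del replicate 4). The means of H/A and Del livers include these arrays. Apoa4, an apolipoprotein of HDL and chylomicrons, rose in all 3 comparisons. Its differences were 1.17 in H/A against WT, 1.07 in Del against WT and 1.60 in Del against Flox livers (adjusted p = 0.039, 0.0469 and 0.00395 in limma).

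Relatives of the 10 genes numbered 19 tested: 2 rose and 1 fell when H/A livers were set against WT livers, 3 rose and 2 fell in Del against WT livers, and 6 rose and 3 fell in Del against Flox livers, with medians of 0.05, 0 and 0.07. Abca5, a lysosomal relative of Abca1, was not well above background on any WT or Flox array and was measured on 3 of 4 H/A and 3 of 4 Del arrays. With the floor described for Soat1, its mean in H/A livers was 1.95-fold that of WT livers. In Del livers it was 1.71-fold that of WT livers and 1.84-fold that of Flox livers. These are not strict lower bounds either, since Abca5 itself was not well above background at a log2 signal of 3.68 in H/A replicate 1. Abca5 too passed the filter only through H/A and Del livers, so no p is given and its place among the rises in all 3 comparisons supports nothing. Cd36, the fatty acid translocase and a relative of Scarb1, rose by 1.14, 1.07 and 1.08 (adjusted p = 0.000609, 0.000516 and 0.000397 in limma). Mboat2, an acyltransferase related to Lpcat3, fell in H/A against WT, Del against WT and Del against Flox livers. Its log2 differences were -0.45, -0.54 and -0.39 (adjusted p = 0.0304, 0.00871 and 0.0234 in limma).

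In Flox against WT and in H/A against Del livers, 0 of the 75 tested genes of these 5 lists passed in limma (5 and 2 at an unadjusted p under 0.05). Lpl, Cd36 and Lipa are also known from macrophages; their rises stood beside the macrophage marker levels given for Abcg1, whose part in them was not tested.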

How the data were processed

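Liver RNA was copied from a mix of random and oligo-dT primers and labelled with Cy3, as the labels' protocols state. Spot intensity values were read with Agilent Feature Extraction, version 11.5.1.1 per the file headers, and the submitters' processing notes name Partek beside Agilent Feature Extraction 11. The deposited values are log2 signals, normalised by the authors: all 16 columns share a median of 4.36; the method of normalisation is not given in the sources used here. Of 60037 probes, 36264 were given a symbol through unversioned RefSeq transcript IDs (GRCm38.p6). The array was designed on another build, so no probe coordinates are given.

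A probe was kept where 4 or more of the 16 arrays had it well above background (37819 probes), and the probe with the highest mean stood for each gene. All 31484 genes were fitted in 1 model of the 16 arrays, by group, with limma 3.58.1 in R 4.3.3, with two-sided moderated tests; the threshold was 0.05 after Benjamini-Hochberg adjustment. Intervals are for single genes. The fit was tested on simulated data. Each sample is a separate mouse, and the number of arrays limits the precision.

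The text names all 10 genes, at most the 4 genes of each pathway list with the smallest p per comparison, the 3 genes most like each gene by Pearson's r over 16 arrays, and markers. Cyp27a1 and the marker genes given with values are among them, while Csf1r, Timd4, Retnlg, Mpo, Reln and Pdgfrb were added after their values were seen. Among the genes of oxysterol metabolism that rose, 1 is not reported here, so rises in that list are not counted. The genes and lists were chosen with earlier results of these data known. Alternatives were the scanner files with other corrections and scalings, other probe rules, slide as a block or alone, and each array left out; the fit of every probe, the fits for Cyp7b1 without Flox replicate 1 and the alternatives of the Abcg5 and Abcg8 correlation were chosen after seeing the data.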

Additional observations from a re-analysis of the deposited data

Results flagged for a closer look

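In 4 of 36 groups of 4 livers (9 genes in 4 genotypes), 1 liver stood apart from the other 3 by more than the 95% critical value of Dixon's test on the gap over the range; chance flags about 1 in 20 groups. Abca1 was highest in WT replicate 2, at a log2 signal of 10.17, and Abcg1 was highest in the same liver, at 7.59. Without that liver Abcg1 stayed called in all 3 comparisons of H/A or Del livers. Lpcat3 was lowest of the H/A livers in replicate 4, at 10.71, the only H/A liver on slide 2. Scarb1 was lowest of the Del livers in replicate 1, at 11.23, the only Del liver on slide 1. For these livers mouse and slide cannot be told apart.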

How the results depend on the processing

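Of the calls, Abcg1 held in all 3 comparisons of H/A or Del livers in every fit that left out 1 array (differences of 1.72 to 2.13, 1.70 to 2.07 and 1.86 to 2.11) and was lost with the files as listed and within slide 1. Every called difference of the other genes was lost with the files as listed, and in Del against Flox livers those of Abcg8, Mylip and Scarb1 also without scaling (-0.81, 0.73 and 0.65; adjusted p = 0.144, 0.0773 and 0.0627). In order of H/A against WT, Del against WT and Del against Flox livers, leaving out 1 array gave 1450 to 8021, 2189 to 7174 and 5098 to 12283 genes called, and 1 to 3, 1 to 2 and 2 to 6 of the 9 genes. The highest gene counts came without WT replicate 2, the lowest without WT replicate 4, Del replicate 3 and Del replicate 3. Flox against WT livers gave 3 to 7 genes and H/A against Del livers 0 to 7, with 0 of the 9 in each. The scanner files as listed gave 5, 0 and 0 genes, and 0 of the 9, in the first 3 comparisons and 0 genes in Flox against WT livers; there Abcg8 gave 0.04 in Del against Flox livers. Without scaling 9542, 2241 and 4365 genes and 6, 1 and 2 of the 9 were called, with 4 genes in Flox against WT and 34 in H/A against Del livers; the median of all genes moved to 0.37 in H/A against WT livers, where Nr1h2 gave 0.56. Within slide 1 there were 14, 141 and 160 genes and 0 of the 9, and within slide 2 626, 2550 and 3503 genes and 1, 1 and 2 of the 9, with 0 genes for Flox against WT livers within each slide and 75 and 262 for H/A against Del livers; these fits hold fewer arrays. Fitting the compared groups alone gave 1826 genes in H/A against WT livers, 1 of the 9 in Del against WT livers, and 2 and 0 genes in Flox against WT and H/A against Del livers. The 2 of 9 in Del against WT livers became 1 with files paired by label, with no filter on dim probes, with the mean of all probes and with every probe kept in the fit. The mean of all probes gave 3 of the 9 in Del against Flox livers. H/A against Del livers had 4 genes called in all, and 0 with files paired by label, normexp, slide as a block or every probe kept, 1 with no filter and 2 with trend and robust moderation. Where no cause is named, the cause was not tested. No paired analysis was possible because the labels number no replicates across genotypes, and the numbers used here only name mice.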
